A study of Mus musculus with 2 samples.

Results

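Tendon cell genes were described in the gastrocnemius, a calf muscle whose fibres end on the Achilles tendon, from sequencing of total RNA. The set holds the 7 genes Scx, Tnmd, Mkx, Comp, Chad, Cilp and Cilp2, of 55536 named genes in the tables. They were chosen by name, with earlier results of these data known. The mice were female B6CASTF1/J animals, F1 hybrids of a C57BL/6J and a CAST/EiJ parent, aged 10 days, and they form 1 group with 2 libraries (biological replicates 1 and 2), each begun with 300 ng of RNA. The labels name no treatment, no engineered allele and no second group. They cite 1 donor entry for both biosamples and do not state that each biosample came from 1 animal, so the spread between libraries may be partly technical. No test between conditions is possible, and the questions are how strongly the muscle sample expressed these genes, in which transcript forms, and how far the libraries differed.

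Tendon joins muscle to bone and consists mainly of collagen fibrils laid down by tendon fibroblasts, the tenocytes. Scx encodes scleraxis, a basic helix-loop-helix transcription factor that marks tendon progenitors and pairs with E proteins on DNA, and Mkx encodes Mohawk, a homeobox factor required for normal growth of tendon collagen fibrils. Tnmd encodes tenomodulin, a membrane glycoprotein of mature tenocytes that depends on Scx in mouse tendon. Comp, a pentameric glycoprotein of the thrombospondin family, Chad, the leucine-rich protein chondroadherin, and Cilp and Cilp2, the cartilage intermediate layer proteins, are secreted matrix proteins found in cartilage as well as in tendon. In bulk tissue fewer cells of a type and less RNA per cell cannot be told apart, so all values are levels in the whole sample.

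The libraries hold 35925081 and 39969380 expected counts, which are reads shared out among genes by a model. Levels are given as TPM, a share of all transcripts corrected for transcript length, which can be compared between genes. All 10 markers of the labelled muscle were detected, led by Acta1, skeletal actin, at TPM 22384 in replicate 1 and 26299 in replicate 2, Mylpf, a fast myosin light chain, at 20396 and 22876, and Ckm, muscle creatine kinase, at 9947 and 12093. The libraries stood apart in bone. The 15 bone markers summed to TPM 433 in replicate 1 and 19.5 in replicate 2, a 22.2-fold difference, and Ibsp, bone sialoprotein, had 1900 counts in replicate 1 and 0 in replicate 2.

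Promoter sequence from RefSeq windows (GRCm38.p6) is shown for 3 members, Tnmd, Chad and Cilp. Scx is a factor that binds E-boxes, and these are the letters it could meet closest to the gene start. The window of Cilp2 lies inside its annotated transcript, Scx and Comp had no window, and Mkx was left out of the search. Capitals mark E-boxes (CANNTG, which reads as the same pattern on both strands) and the TATA motif TATAAA, searched on both strands, and no match of one motif overlapped a match of the other. The windows are chrX:133850758-133850979 for Tnmd, chr11:94564797-94565046 for Chad and chr9:65264930-65265179 for Cilp, all on the plus strand and printed 5′ to 3′ up to the base before the annotated start.
Tnmd: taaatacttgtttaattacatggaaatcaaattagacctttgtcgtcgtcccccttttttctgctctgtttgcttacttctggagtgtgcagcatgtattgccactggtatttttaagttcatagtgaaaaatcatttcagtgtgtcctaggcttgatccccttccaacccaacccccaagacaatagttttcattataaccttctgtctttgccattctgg
Chad: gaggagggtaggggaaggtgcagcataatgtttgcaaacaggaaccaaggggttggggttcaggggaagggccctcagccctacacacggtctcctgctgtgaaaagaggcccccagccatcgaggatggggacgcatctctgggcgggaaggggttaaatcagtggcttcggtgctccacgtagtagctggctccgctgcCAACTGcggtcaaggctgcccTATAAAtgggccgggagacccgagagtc
Cilp: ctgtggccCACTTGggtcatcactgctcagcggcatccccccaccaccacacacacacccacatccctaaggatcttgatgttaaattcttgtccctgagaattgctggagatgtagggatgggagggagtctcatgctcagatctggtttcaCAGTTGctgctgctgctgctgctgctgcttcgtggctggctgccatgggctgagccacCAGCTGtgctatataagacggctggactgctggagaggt
The 222 bases of Tnmd held no E-box and no TATA motif. The 250 bases of Chad held 1 E-box and 1 TATA motif, whose first base lies 28 bases before the start. The 250 bases of Cilp held 3 E-boxes and no TATAAA. Only that exact form was searched, and the Cilp window holds the similar letters tatataag near its end. Among 32851 RefSeq promoter windows, 66.2% held at least 1 E-box in the 250 bases before the RefSeq start, and 12.4% held TATAAA there. In the first 222 of those bases, which leave out the bases nearest that start, the shares were 62.4% and 10.1%. A match describes letters and not a site, and no match says only that these letters are not in the window printed.

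All 7 tendon cell genes were detected, defined as TPM 1 or more in both libraries, against 52.3% of nuclear protein coding genes and 22.6% of all named genes. Tnmd and Cilp were far above the other members and together held 72.6% ± 0.680 of the summed TPM of the set (SD, n = 2). The transcription factors Scx and Mkx held 12.2% ± 1.24, and the 4 matrix genes 46.5% ± 4.81. The whole set summed to TPM 162 in replicate 1 and 157 in replicate 2, which is 0.0347% ± 0.00125 of nuclear protein coding TPM.

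The transcription factors were at low to middling levels. Scx (chromosome 15, 76457452 to 76459458, plus strand) stood at TPM 13.8 in replicate 1 and 12.4 in replicate 2, and its mean of 13.1 ± 0.990 lay above 61.5% of the detected nuclear protein coding genes. It had 396 expected counts in each library, with an exact Poisson interval of 358 to 437 that covers counting error only. Mkx (chromosome 18, 6934518 to 7004780, minus strand) stood at TPM 7.41 and 5.41, a mean of 6.41 ± 1.41, above 38.0% of those genes. Its counts were 237 and 232, so the gap in TPM came with nearly equal counts and with an assumed transcript length of 1234 bases in replicate 1 and 1435 in replicate 2. The deposited TPM intervals of Mkx, 5.83 to 9.30 and 4.15 to 6.81, overlap; their level is not given in the sources used here.

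Tnmd (chromosome X, 133850980 to 133865577, plus strand), the tenocyte membrane protein, was the highest member by TPM. It stood at TPM 71.0 in replicate 1 and 60.9 in replicate 2, a mean of 65.9 ± 7.13 (SD, n = 2), above 92.3% of detected nuclear protein coding genes. Its counts were 2509 and 2448. Tnmd exceeded Scx by TPM in both libraries, with a ratio of Scx over Tnmd of 0.195 in replicate 1 and 0.204 in replicate 2. Cnmd, the gene of chondromodulin, the closest relative of tenomodulin and a cartilage gene, had 19 and 9 counts and TPM 0.530 and 0.440, under the detection limit.

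Among the matrix members Cilp was the highest and Chad the lowest. Cilp (chromosome 9, 65265180 to 65280605, plus strand) stood at TPM 45.8 in replicate 1 and 53.9 in replicate 2, a mean of 49.8 ± 5.68. It had the most counts of the set, 5239 and 7004, over a transcript of 4153 bases. Its relative Cilp2 (chromosome 8, 69880369 to 69887687, minus strand) stood at TPM 11.2 and 11.9, a mean of 11.6 ± 0.502, with 1331 and 1610 counts. Cilp was above Cilp2 in both libraries, 4.09-fold in replicate 1 and 4.52-fold in replicate 2.

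Comp (chromosome 8, 70373558 to 70382066, plus strand) stood at TPM 8.17 in replicate 1 and 7.52 in replicate 2, a mean of 7.85 ± 0.460 (SD, n = 2), with 510 and 543 counts. Comp lies 485870 bases from Cilp2 on the same chromosome. Of the other thrombospondin genes, Thbs4, which is known in tendon and at the muscle end of tendon, was the highest at TPM 58.1 and 49.97. Thbs2 followed at 37.3 and 26.9, Thbs3 at 27.2 and 18.1 and Thbs1 at 17.0 and 12.1, so Comp was the lowest of the 5 in both libraries. Chad (chromosome 11, 94565047 to 94569127, plus strand), which binds collagen and integrins, stood at TPM 4.58 and 5.03, a mean of 4.81 ± 0.318, with 204 and 255 counts. Its relatives Tsku, at TPM 3.94 and 2.58, and Chadl, at 1.52 and 0.890, were lower, and Nyx had 10 and 3 counts.

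**Figure D1:**
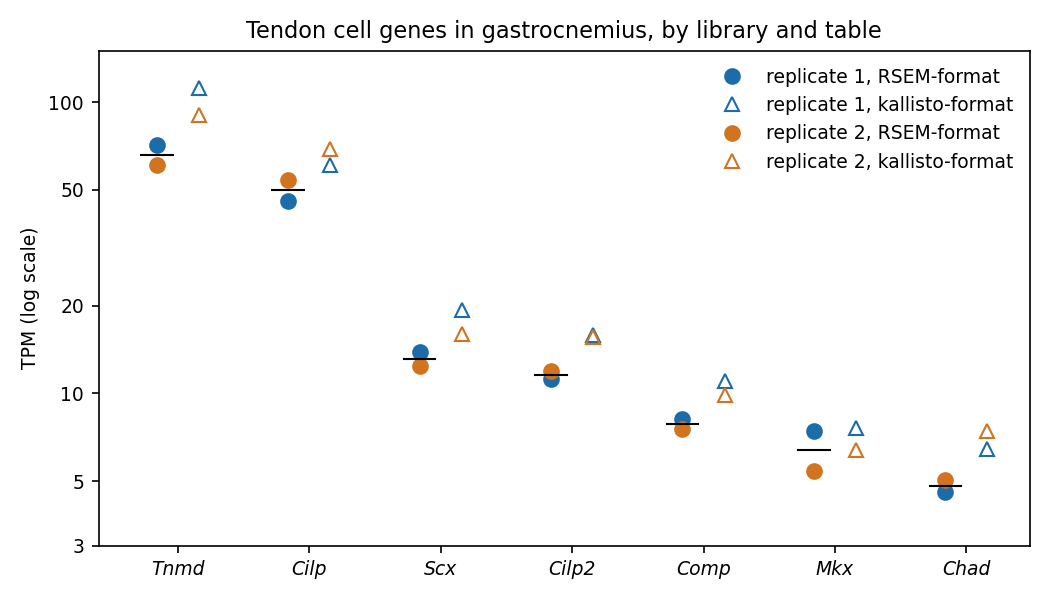
Level of each tendon cell gene in TPM on a log axis; filled circles are RSEM-format values, open triangles kallisto-format values, colours the libraries, and the short lines the mean of the RSEM-format values (n = 2). Tnmd and Cilp stand apart from the other 5 genes, which lie between TPM 4.58 and 13.8 in the RSEM-format tables.

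The order by mean TPM was Tnmd, Cilp, Scx, Cilp2, Comp, Mkx, Chad, and it was the same in both libraries. For neighbours in this order, the difference was 16.1 TPM between Tnmd and Cilp and 36.7 between Cilp and Scx, beyond the combined SD of 9.12 and 5.76. Cilp2 and Comp differed by 3.71 against a combined SD of 0.681. Scx and Cilp2 differed by 1.57 against 1.11. Comp and Mkx differed by 1.43 against 1.49, which is within their spread, and Mkx and Chad by 1.61 against 1.45. With 2 libraries such an SD is itself poorly known.

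The kallisto-format tables, made from the same reads, gave the same leading members. Mean kallisto-format TPM was 101 ± 15.3 for Tnmd, 65.1 ± 5.79 for Cilp, 17.7 ± 2.37 for Scx, 15.7 ± 0.160 for Cilp2, 10.5 ± 0.840 for Comp, 6.99 ± 0.846 for Mkx and 6.93 ± 0.716 for Chad (SD, n = 2). Mkx and Chad changed places between libraries there, with Mkx at 7.59 and 6.39 and Chad at 6.42 and 7.43. Kallisto-format values were higher than RSEM-format values for every member, by 1.09-fold for Mkx to 1.53-fold for Tnmd, beside a median of 1.44-fold over 12562 detected genes. No member was 2-fold apart between the kinds of table, a limit that 11.7% of detected genes passed in either direction.

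A pair of members lies inside other genes. Scx lies whole inside an intron of Bop1, a ribosome biogenesis gene on the opposite strand (chromosome 15, 76452989 to 76477277), and no exonic base is shared. Bop1 stood at TPM 12.4 in replicate 1 and 12.2 in replicate 2. Chad lies likewise inside an intron of Acsf2, an acyl-CoA synthetase gene on the opposite strand (chromosome 11, 94557102 to 94601871), also without a shared exonic base, and Acsf2 stood at TPM 4.43 and 3.06. The spike-in label names stranded libraries, but the sources used here do not give whether counting used strand. Reads from unspliced Bop1 or Acsf2 RNA cannot be told apart from those of Scx or Chad in these tables. The end of Mkx shares exonic bases with AC148004.2, annotated on the same strand, to which the tables gave 0 counts in both libraries. Tnmd, Comp, Cilp and Cilp2 overlap no other annotated gene.

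Tnmd, Chad and Cilp2 have 1 annotated transcript each, Scx and Cilp have 2, and Comp and Mkx have 4. For Scx, the spliced coding form Scx-201 held 91.8% of the gene's TPM in replicate 1 and 94.2% in replicate 2. The rest was Scx-202, a single exon of 2007 bases that spans the whole gene and holds all 1035 bases of Scx-201 and 972 more, annotated as a retained intron. Scx-202 took 60.7 counts in replicate 1 and 44.5 in replicate 2, and 63.2 and 57.2 in the kallisto-format tables, where its share of TPM was 8.48% and 7.79%. The full-length coding form Comp-201 held 94.7% and 96.6% of Comp, and 96.8% and 96.7% by kallisto-format values. Comp-203, a shorter coding form of 495 bases, all of them shared with Comp-201, held 5.34% in replicate 1 and 2.53% in replicate 2 on 4.87 and 2.41 counts. Cilp-201 held all of Cilp in the RSEM-format tables and 96.5% and 97.0% in the kallisto-format tables, where Cilp-202, annotated for nonsense-mediated decay and sharing 4029 of its 4128 bases, took the rest.

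Mkx was the member whose value rested most on how reads were divided among transcripts. The full-length coding form Mkx-201 had 181 of 237 counts in replicate 1 and 180 of 232 in replicate 2, yet held 24.4% and 29.1% of the gene's TPM. Mkx-203, a retained-intron form of 425 bases that shares 372 of them with Mkx-201, held 67.5% and 43.5% of TPM on 46.0 and 24.6 counts. Mkx-204, a retained-intron form of 684 bases, held 6.68% in replicate 1 and 27.4% in replicate 2. In the kallisto-format tables Mkx-203 held 15.6% and 0%, Mkx-204 4.95% and 41.8%, and the short coding form Mkx-202 41.1% and 21.1%, while Mkx-201 held 38.4% and 37.1%. The short forms therefore changed share between libraries and between kinds of table, while Mkx-201 held 76.4% and 77.4% of the gene's counts in the RSEM-format tables. Taken alone, Mkx-201 stood at TPM 1.81 in replicate 1 and 1.58 in replicate 2, and at 2.91 and 2.37 by kallisto-format values, below the level of Chad in each library.

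**Figure D2:**
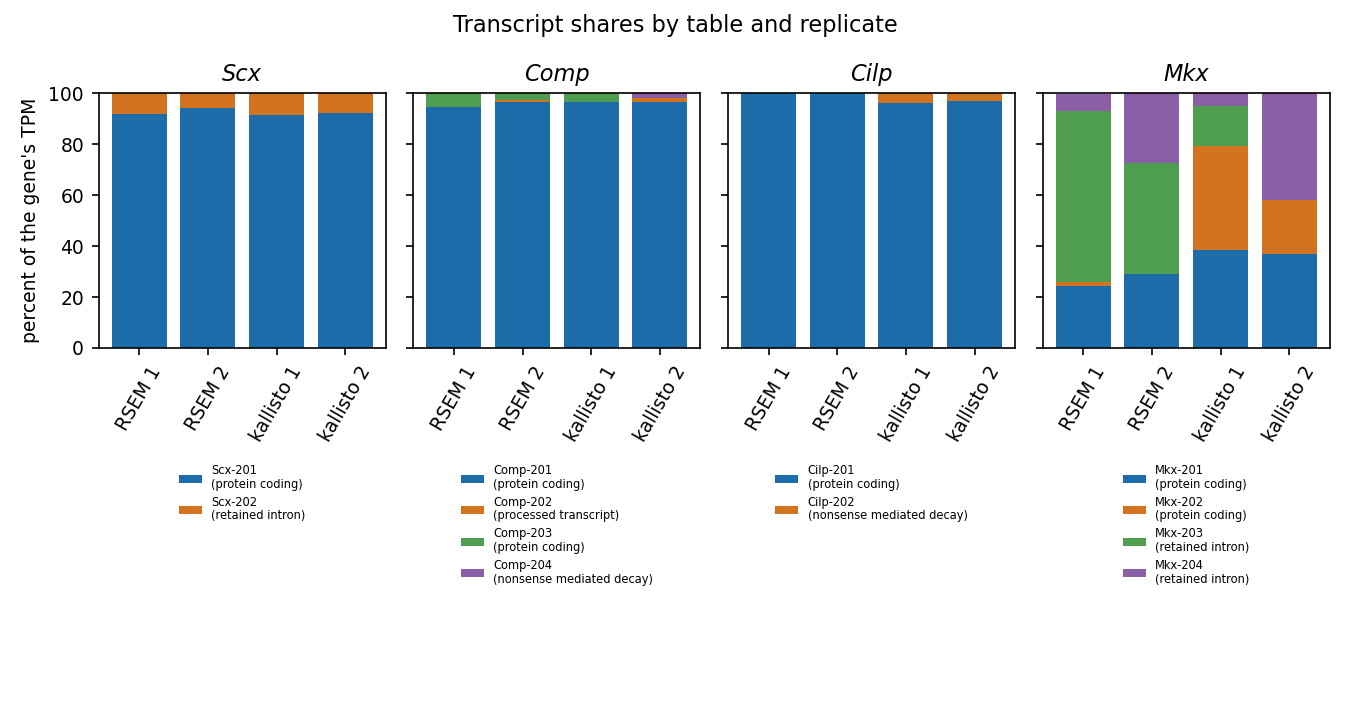
Percent of each gene's TPM held by its annotated transcripts, for the 4 tendon cell genes with more than 1 transcript, in RSEM-format and kallisto-format tables of replicates 1 and 2. One coding form holds over 90% of Scx, Comp and Cilp in every table, while the shares of Mkx differ between tables and between replicates.

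The tendon cell genes differed by less than 2-fold between the libraries. Counts of Scx, Tnmd and Mkx were nearly equal, at 1.00, 0.976 and 0.979 times in replicate 2 those in replicate 1. Counts of the matrix members were higher in replicate 2, by 1.06-fold for Comp, 1.21-fold for Cilp2, 1.25-fold for Chad and 1.34-fold for Cilp. These raw counts are not scaled for depth, and replicate 2 was the deeper library, with 39969380 expected counts against 35925081 in replicate 1. With libraries brought to a common scale by TMM, a factor that balances most genes, log2 ratios of replicate 2 over replicate 1 were 0.09 for Scx, 0.05 for Tnmd, 0.06 for Mkx, 0.18 for Comp, 0.36 for Cilp2, 0.41 for Chad and 0.51 for Cilp. No member differed by 2-fold, a limit that 7.13% of the 16781 genes whose counts averaged 10 or more passed in either direction.

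Counting error alone covered part of these differences. Exact binomial intervals on the log2 scale, which cover counting error only, ran from -0.11 to 0.29 for Scx, from -0.03 to 0.14 for Tnmd and from -0.21 to 0.33 for Mkx, and include 0. They ran from 0.00 to 0.36 for Comp, from 0.26 to 0.47 for Cilp2, from 0.14 to 0.68 for Chad and from 0.46 to 0.56 for Cilp. The sign depends on the scale chosen. By TMM all 7 members lay above 0, with a median of 0.18, beside 52.9% of all 16781 genes and a median of 0.02. By library totals 3 of 7 did, beside 23.5% of all genes, with a median of -0.06 beside -0.22 over all genes. By spike-in totals Cilp and Chad did, beside 10.3% of all genes, with a median of -0.21 beside -0.37. Each of these other scales lowers every ratio by the same amount, 0.24 for library totals and 0.39 for spike-in totals.

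**Figure D3:**
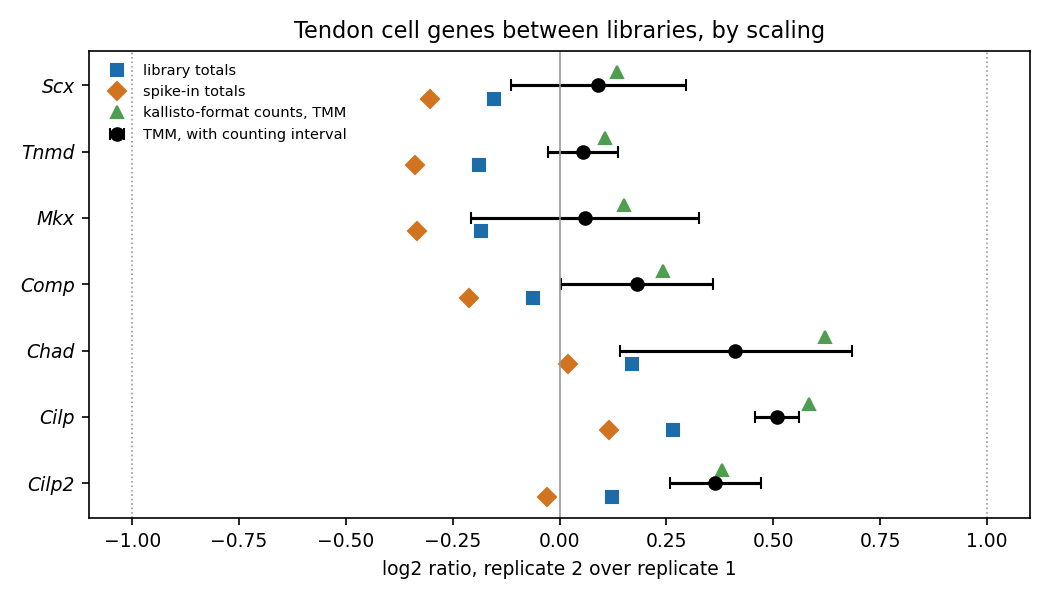
Log2 ratio of replicate 2 over replicate 1 for each tendon cell gene; black points are TMM-scaled with a 95% interval for counting error only, and coloured symbols are other scales or the kallisto-format counts. All values lie inside the dotted 2-fold lines, Cilp, Chad and Cilp2 lie to the right of Scx, Tnmd and Mkx on every scale, and the sign of most members turns with the scale.

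Ratios between members within a library do not depend on that choice. Cilp over Tnmd was 0.646 in replicate 1 and 0.885 in replicate 2 by TPM, and 0.546 and 0.769 by kallisto-format TPM. Chad over Scx was 0.331 and 0.405, and 0.332 and 0.465 by kallisto-format TPM. Comp over Scx was 0.591 and 0.605, and 0.573 and 0.618 by kallisto-format TPM. Mkx over Scx was lower in replicate 2 by TPM, at 0.536 and 0.435, and nearly equal by kallisto-format TPM, at 0.393 and 0.400. Cilp over Tnmd and Chad over Scx were thus higher in replicate 2 in both kinds of table, and Mkx over Scx was not. With 1 library on each side these differences have no replicate check.

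Comp, Chad, Cilp and Cilp2 are also cartilage genes, and most markers of cartilage and bone fell on the other side by TMM, lower in replicate 2 where these 4 were higher. Of 20 cartilage markers 6 were detected and 15 had a mean count of at least 10, with a median log2 ratio of -0.35. By TMM 12 of the 15 were lower in replicate 2, where 52.9% of all genes were higher. By spike-in totals 1 of 15 was higher, beside 10.3% of all genes. The list summed to TPM 124 in replicate 1 and 91.7 in replicate 2. The 6 detected were Sox6, a partner of Sox9 that muscle also expresses, at TPM 48.8 and 45.4, Col11a2 at 46.7 and 26.3, Col2a1, the main cartilage collagen, at 14.7 and 11.5, Matn4 at 2.55 and 2.27, Acan, aggrecan, at 2.24 and 1.54, and Sox5 at 1.12 and 1.03. The other 14 were under the detection limit in at least 1 library, among them Sox9, the chondrocyte regulator, at 1.19 and 0.880, Hapln1 at 1.04 and 0.340, and Col9a1, Col9a2, Col9a3, Matn3 and Cnmd, each under TPM 1 in both. Matn1, Snorc and Ucma had 4, 1 and 2 counts in replicate 1 and 0 in replicate 2. Col10a1, the collagen of hypertrophic cartilage, had 179 counts against 0, at least 56.1-fold higher in replicate 1 against a floor of 3 counts per library, and Col9a1 had 34 against 14. No cartilage marker was at 0 in both libraries. Of the 15 bone markers 13 had a mean count of at least 10, all 13 were lower in replicate 2 on each scale, and 12 were at least 2-fold lower: Spp1, Ctsk, Bglap, Acp5, Ibsp, Mmp13, Bglap2, Dmp1, Alpl, Phex, Runx2 and Sp7. Spp1, osteopontin, stood at TPM 107 and 0.570, Ctsk, an osteoclast protease, at 78.6 and 10.9, Bglap, osteocalcin, at 77.5 and 0, and Sp7, the osteoblast regulator, at 3.26 and 0.110. The part of cartilage or bone cells in the levels of Comp, Chad, Cilp and Cilp2 was not tested. By raw count, which is not scaled for the greater depth of replicate 2, and by TMM none of these 4 was lower in replicate 2. By RSEM-format TPM Comp was lower, at 8.17 in replicate 1 and 7.52 in replicate 2, while Chad, Cilp and Cilp2 were higher. By library totals Comp alone of these 4 was lower, at -0.06. By spike-in totals Comp and Cilp2 were lower, at -0.21 and -0.03.

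Muscle markers were also higher in replicate 2. All 10 were so by TMM, beside 52.9% of all genes averaging 10 or more counts, with a median log2 ratio of 0.54. By spike-in totals 8 of 10 were higher, beside 10.3% of those genes, with a median of 0.14. The part of muscle RNA in the higher values of Cilp, Chad and Cilp2 was not tested.

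**Figure D4:**
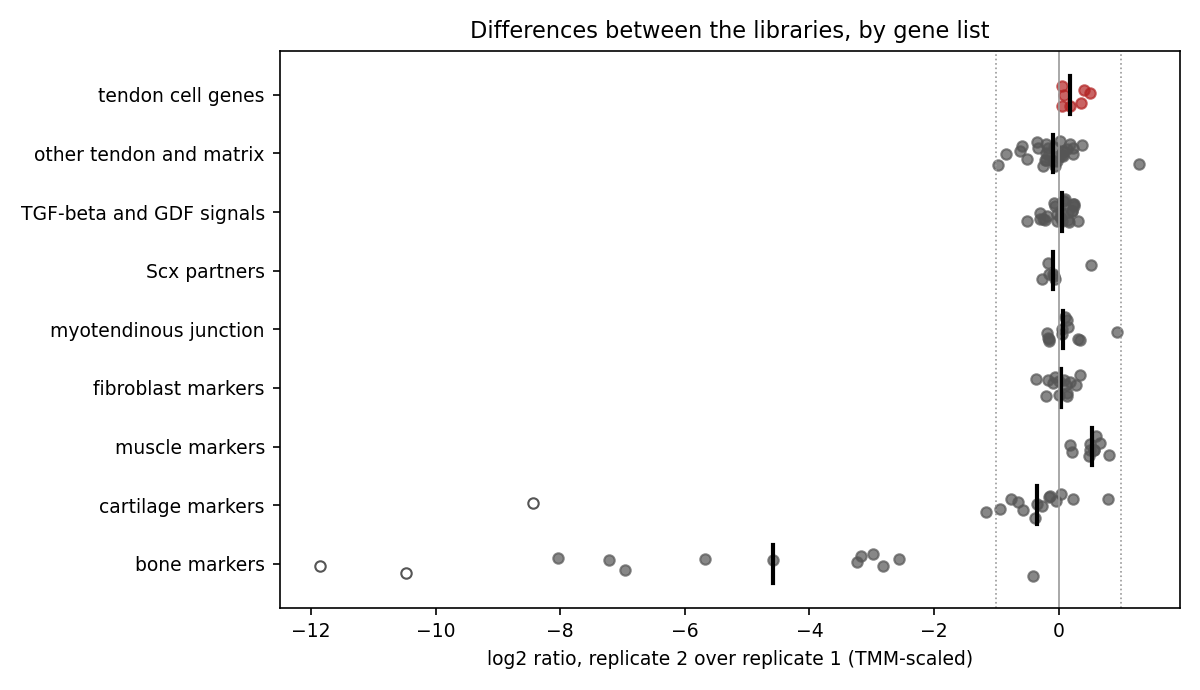
TMM-scaled log2 ratio of replicate 2 over replicate 1 for genes averaging 10 or more counts, by list; each point is a gene, open points have 0 counts in a library and are drawn at fitted values that depend on the prior count, bars are medians and dotted lines mark 2-fold. Tendon cell genes lie between 0.05 and 0.51 on this scale. By spike-in totals 5 of 7 lie below 0, where 10.3% of all genes lie above 0. Bone markers reach far to the left.

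The collagen genes Col1a1, Col1a2 and Col3a1 were far above the 7 members. Of 30 other tendon cell and tendon matrix genes 29 were detected, led by Col1a1, at TPM 3542 in replicate 1 and 1887 in replicate 2, Col1a2, at 1983 and 1123, and Col3a1, at 1617 and 1277. Collagens and small proteoglycans are shared with other fibroblasts and, for type I collagen, with bone. Fmod, fibromodulin of tendon collagen fibrils, stood at 97.9 and 84.9, and Kera, keratocan, at 34.0 and 28.6. Prg4, lubricin of joint and sheath surfaces, was under the detection limit with 30 and 22 counts. By TMM 11 of the 30 were higher in replicate 2 and 19 lower, with a median of -0.08. By spike-in totals 1 of 30 was higher, beside 10.3% of all genes averaging 10 or more counts. Angptl7, at 98 counts in replicate 1 and 225 in replicate 2, was 2-fold apart by TMM, with a log2 ratio of 1.28, and not by spike-in totals, with 0.89. Which other genes passed that limit also turned with the scale: none by TMM, Col11a1 and Tnc by library totals, at -1.21 and -1.08, and Col11a1, Tnc and Col1a1 by spike-in totals, at -1.36, -1.23 and -1.02. By TMM these 3 were lower in replicate 2, with Col11a1 at -0.97, Tnc at -0.84 and Col1a1 at -0.63. Fmod, Thbs4 and Kera, picked from the 30 after values were seen, had TMM log2 ratios of 0.06, 0.06 and 0.03. The median over all genes averaging 10 or more counts was 0.02. By spike-in totals these 3 genes stood at -0.33, -0.34 and -0.37, beside a median of -0.37.

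Most genes of signals that act on tendon cells were detected, Tgfb2 and Tgfb3 among them, while Gdf5, Gdf6 and Gdf7 were not. TGF-beta ligands recruit tendon progenitors and raise Scx in mouse limbs. Of 29 genes of this list 23 were detected, led by mean TPM by the BMP receptor Bmpr1a, at 45.2 in replicate 1 and 40.6 in replicate 2, Ltbp3, a binding protein of latent TGF-beta, at 49.98 and 34.7, and Bmp1, a protease that trims procollagen, at 36.4 and 21.2. Tgfb2 stood at 17.1 and 14.8 and Tgfb3 at 20.4 and 17.7, and the receptors Tgfbr1 and Tgfbr2 at 13.5 and 9.34 and at 22.2 and 18.2. Gdf5, Gdf6 and Gdf7, growth factors of joint and tendon, had 2, 14 and 0 counts in replicate 1 and 3, 11 and 1 in replicate 2, and Fgf4 had 5 and 4 counts and Fgf8 had 2 and 3. Of 25 that averaged 10 or more counts, 15 were higher in replicate 2 by TMM, none by 2-fold, with a TMM median of 0.05. By spike-in totals 0 of 25 were higher, beside 10.3% of all genes averaging 10 or more counts.

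The dimer partners of scleraxis were above it. Tcf4, Tcf12 and Tcf3, the E protein genes, stood at TPM 76.7 and 56.8, 34.1 and 31.5, and 19.1 and 14.5. The Id genes, whose products hold E proteins away from DNA, ranged from Id3 at 21.6 and 15.4, above Scx in both libraries, through Id1 at 9.34 and 11.2, Id2 at 5.67 and 4.12, to Id4 at 1.55 and 1.06. All 7 were detected and none was 2-fold apart. Tcf15, the closest relative of Scx by family, known in somites and in muscle endothelium, stood at 9.90 and 8.78, below Scx in both libraries. Of the Iroquois genes, homeobox relatives of Mkx, none was detected: Irx3 had 48 and 15 counts, Irx5 50 and 1, Irx4 0 in both, and Irx1, Irx2 and Irx6 no more than 3 in either library.

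Markers of the muscle end of tendon and of muscle fibroblasts were detected beside the tendon cell genes. All 12 genes of the myotendinous junction list were detected, led by the laminin chains Lamb1, at TPM 77.9 and 66.7, and Lamb2, at 74.8 and 65.0, with vinculin, Vcl, at 56.0 and 56.1 and the integrin Itga7 at 56.4 and 53.1; these also serve the fibre surface elsewhere. Col22a1, a collagen of that junction, stood at 15.8 and 10.8. Of 15 fibroblast markers 14 were detected, led by Dcn at 255 and 230, Col15a1 at 159 and 145 and Gsn at 96.7 and 86.5. Their median log2 ratio was 0.04, with 7 higher and 7 lower by TMM. By spike-in totals 0 of 14 were higher, beside 10.3% of all genes averaging 10 or more counts. Neither list held a gene 2-fold apart. How many of the tendon cell gene transcripts came from tendon attached to the muscle, and how many from connective tissue within it, was not tested.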

How the data were processed

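Total RNA was sequenced in 2 libraries of mouse gastrocnemius. Per the labels, ERCC spike-ins meant for stranded libraries reduced in ribosomal RNA were used. Deposited text notes name genome build mm10 and GENCODE M21. Tools and versions behind the tables: not given in the sources used here. Tables are called RSEM-format or kallisto-format by their headers. The deposited tables hold expected counts (kallisto-format: estimated counts), TPM scaled to the same total in each library with spike-ins included, and, per the file headers, the percent of a gene's TPM held by each transcript.

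All 55536 named genes matched GENCODE M21. Rows with a number and no name held 1.38e-05% and 5.00e-06% of counts and were left out; spike-ins held 0.720% and 0.798%. Kallisto-format values were summed per gene. Expected counts were rounded, and ratios are log2 CPM with a prior count of 0.5, TMM-scaled in edgeR 4.0.16 under R 4.3.3, over genes averaging 10 or more counts. DESeq2 1.42.0 size factors, library totals, spike-in totals and kallisto-format counts were alternatives. Log2 ratios between kinds of table used a pseudocount of 0.01 TPM. The chi-square per degree of freedom between libraries was 48.6 over genes and 3.06 over spike-ins, so the libraries differ beyond sampling noise. The ratio calculation was tested on simulated data in which as many genes were raised as lowered. By TMM 1071 genes were 2-fold lower in replicate 2 of the real libraries and 126 higher. The simulation therefore cannot tell which scale suits them.

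Members and lists were chosen with earlier results of these data known. Every member is named; from other lists the leading 3 by mean TPM, genes at 0 in both libraries, genes 2-fold apart and relatives of members were set for naming, and further list genes named were chosen after their values were seen. With 2 libraries a pattern across samples is 1 ratio, so no gene was ranked by likeness. Promoter windows are from RefSeq, GRCm38.p6. Of the members, the windows of Tnmd, Chad and Cilp were used, and that of Cilp2 lies inside its GENCODE transcript. Scx and Comp had no window, and Mkx was left out before the search, whatever its window. Python 3.11.15 was used with scipy 1.17.1, pandas 2.3.3, numpy 2.4.6 and, for plots, matplotlib 3.10.9.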

Additional observations from a re-analysis of the deposited data

How the results depend on the processing

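All 7 members stayed detected at TPM 2 and in the kallisto-format tables. A limit of TPM 0.5 or leaving out a replicate could not lose a detected member, so those settings do not test detection. The summed TPM of 159 became 224 in the kallisto-format tables and 347 when rescaled to nuclear protein coding genes alone. It stayed within 1 SD with posterior mean TPM. With 2 libraries the value without either replicate always lies within 1 SD of the mean, so leaving out a replicate could not test this sum. The count of members 2-fold apart between libraries was 0 under each of the 3 other scalings, with kallisto-format counts, a prior count of 2 and a 1.5-fold limit. With no count filter or a mean count of at least 100 the same 7 members remain, so those settings could not change this count. Their median log2 ratio of 0.18 became -0.062 with library totals, -0.21 with spike-in totals and 0.24 with kallisto-format counts. It was 0.17 with DESeq2 size factors and 0.18 with a prior count of 2, and neither count filter could change it. No member was 2-fold apart between RSEM-format and kallisto-format values, and 1, Tnmd, was at a 1.5-fold limit. Leaving out a replicate leaves no ratio between libraries. No paired analysis was possible because there is 1 group. Depth limits Chad, Mkx and Scx most.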
